A study of Homo sapiens with 40 samples.

Results

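SLC25A12-F137S overexpressed in SLC25A12-knockout HEK293T cells was compared with the same knockout carrying vector only, both in vehicle. The comparison uses 8 of the 40 libraries of the study, 4 for each line, chosen by the line and treatment in their labels. HEK293T is an established human embryonic kidney line. The 2 lines are called F137S cells and KO-vector cells here. Both carry sgSLC25A12, the guide against SLC25A12, and both stood in vehicle for 6 hours. F137S cells also carry an SLC25A12 cDNA with the F137S change, which puts serine in place of a phenylalanine. The study has 3 further lines. One carries F137S together with dMTS-DELE1 in the knockout (dMTS-DELE1 cells), one is labelled knockout plus SLC25A12-WT, and one is wild type with vector (WT-vector cells). A second set of libraries of each line followed 6 hours of antimycin A at 40 nM, a drug that blocks complex III of the respiratory chain. The labels give neither the promoter and vector of the cDNA, nor whether a line is a clone or a pool, nor what the F137S change does to the protein. They call the 4 libraries of a group biological replicates without saying whether these are separate cultures, so p-values measure the spread between libraries only. They name no batch or date.

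SLC25A12 encodes an aspartate and glutamate carrier of the inner mitochondrial membrane. It exports aspartate from mitochondria and so serves the malate-aspartate shuttle, which brings electrons from cytosolic NADH to the respiratory chain. The title of the series places the protein in mitochondrial stress signalling. In that signalling the protease OMA1 cleaves DELE1, DELE1 activates the kinase HRI (gene EIF2AK1), and HRI phosphorylates eIF2α. General translation then falls while the transcription factor ATF4 is translated more and turns on its targets, which make up the integrated stress response (ISR). The heat shock response is a separate program, in which the factor HSF1 turns on chaperone genes when proteins misfold in the cytosol.

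F137S cells differed from KO-vector cells in few genes. Of 16739 genes tested, 14 rose in F137S cells and 0 fell, which is 0.0836% of genes (edgeR quasi-likelihood test, Benjamini-Hochberg adjusted p < 0.05). Of the 14, 6 rose at least 2-fold. They were SLC25A12 itself, the inducible heat shock protein gene HSPA6, the ISR genes INHBE and NUPR1, the zinc transporter gene SLC39A7 and the transcript LOC101927762. The other 8 rose by less. They were VLDLR, STC2 and CEBPG of the ISR list, the metabolic genes CTH and SLC38A2, and ZNNT1, AMH and RERE. At an unadjusted p under 0.05, 538 genes were higher and 477 lower, which together are 6.06% of genes tested. The DESeq2 Wald test called 24 genes, 21 higher and 3 lower, and these include all 14. The count of 14 fell to 8 without F137S replicate 1, to 5 without F137S replicate 4 and to 6 without KO-vector replicate 2. SLC25A12, HSPA6 and INHBE were called in each of the 8 fits that left out 1 library. NUPR1, STC2 and SLC38A2 were called in 6 of the 8, RERE in 5, CEBPG in 4, CTH in 3, ZNNT1 and LOC101927762 in 2, VLDLR and AMH in 1 and SLC39A7 in 0.

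**Figure D1:**
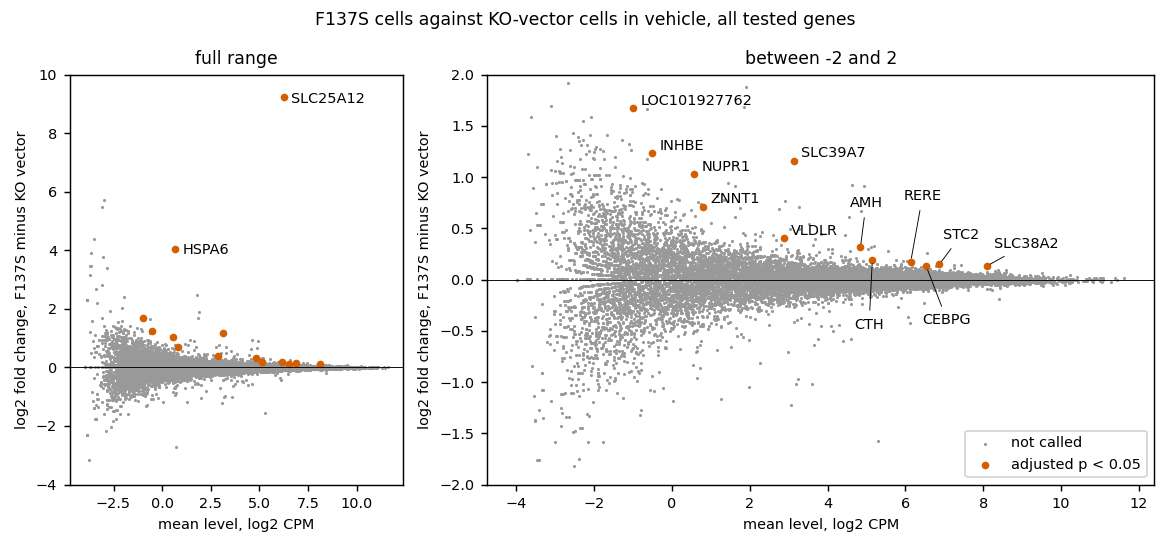
Log2 fold change in vehicle, F137S minus KO vector, against the mean log2 CPM of the 8 libraries, for all 16739 tested genes. The left panel shows the full range and the right panel the range from -2 to 2. Orange points are the 14 genes at an adjusted p < 0.05, and all 14 lie above 0.

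The plot of change against level shows how narrow the spread was around 0. The median log2 fold change was 0.00024, and the median standard error was 0.062. The 95% interval of the fold change lay within 2-fold in either direction for 89.1% of genes. Among the 12756 genes with a mean of at least 1 on the log2 CPM scale, this share was 99.2%. The 8 libraries held 31.7 to 32.0 times 1e6 counts each. Of counts from 1 to 20 in a library, 55.7% to 57.7% were even. Read pairs counted 2 times would raise this share, which was not tested. With all counts halved, 6 genes were called in vehicle in place of 14, and 3 in place of 6 at 2-fold or more. Of the 9 HEK293T markers, 8 were above 1 CPM in all 8 libraries, with summed levels of 808 to 820 CPM in F137S cells and 808 to 817 CPM in KO-vector cells. LHX1 was not above 1 CPM in every library. Of 15 markers of leukocytes, endothelium, hepatocytes, erythroid cells and fibroblasts, 1 was above 1 CPM in all 8 libraries, the collagen gene COL1A1, at 18.7 to 20.6 CPM in F137S cells and 17.4 to 18.4 CPM in KO-vector cells (adjusted p = 0.80). The leukocyte gene PTPRC and the erythroid gene HBB had 0 counts in all 8 libraries, and 0 of these markers were called.

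SLC25A12 was present as the labels require (chromosome 2, from 171783405 to 171894244 in GRCh38.p14). It stood at 1858, 1867, 1860 and 1826 CPM in F137S cells and at 3.43, 2.99, 2.96 and 2.96 CPM in KO-vector cells. This is a 600.0-fold difference (95% interval 572 to 629; log2 fold change 9.23 ± 0.03 SE, adjusted p = 2.4e-100). WT-vector cells held 38.7 ± 1.82 CPM (SD, n = 4), so the cDNA gave a level far above the native one (F137S cells against wild type with vector, log2 fold change 5.58 ± 0.02, adjusted p = 6.3e-95). The transcript made up at most 0.186% of the counts of a library. The libraries labelled knockout plus SLC25A12-WT held 38.9 ± 0.330 CPM, close to the 38.7 CPM of WT-vector cells and far under the F137S line. No line thus carries wild-type SLC25A12 at a level near 1853 CPM, and the F137S change and the high expression of the cDNA cannot be told apart here. Of the 14 genes tested within 1 Mb of SLC25A12, 0 were called in vehicle by edgeR, beside 0.0836% of all genes. At that share, 0 of 14 does not set these neighbours apart. Their log2 fold changes ran from -0.10 to 0.03, with a lowest adjusted p of 0.95.

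HSPA6 had the largest fold change after SLC25A12 among the 14 called genes. It encodes an HSP70 chaperone that human cells hold at very low levels until heat or another proteotoxic stress turns it on. Its start region holds a heat shock element, the binding motif of HSF1, searched as GAA, TTC and GAA in this order with 2 free bases between them, on both strands. The region is shown to place this element, which stands in capitals in the 250 bases before the HSPA6 start (GRCh38.p14, plus strand, chr1:161524290-161524539, from RefSeq).
HSPA6: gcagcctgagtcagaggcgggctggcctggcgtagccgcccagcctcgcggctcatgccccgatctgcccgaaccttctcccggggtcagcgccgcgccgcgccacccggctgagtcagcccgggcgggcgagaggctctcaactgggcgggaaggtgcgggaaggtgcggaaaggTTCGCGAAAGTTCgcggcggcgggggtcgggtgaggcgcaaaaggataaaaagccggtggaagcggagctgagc
The element reads on the minus strand and begins at position -74, counted from the start. Start windows hold 250 bases before and 50 bases after a gene's start, and only the 250 bases before it were searched. Of 35116 such windows, 0.441% hold the element there. Counted by gene, 152 of 27305 genes with a window hold it, and 6 of the 16 genes of the heat shock list with a window do. A match shows these letters, not that HSF1 was bound in these cells.

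HSPA6 counts were 164, 189, 192 and 226 in F137S cells and 9, 10, 13 and 14 in KO-vector cells. These are 5.20, 5.93, 6.09 and 7.12 CPM in F137S cells and 0.286, 0.314, 0.410 and 0.441 CPM in KO-vector cells. The lowest F137S library lay far above the highest KO-vector library. The fold change was 16.6 (95% interval 12.6 to 21.9; log2 fold change 4.05 ± 0.20 SE, adjusted p = 2.1e-28). WT-vector cells held 0.382 ± 0.0881 CPM, and KO-vector cells against them did not pass (log2 fold change -0.07 ± 0.29, adjusted p = 0.86). The near-identical pseudogene HSPA7 can share reads with HSPA6. It had 4, 1, 6 and 8 counts in F137S cells and 2, 0, 0 and 0 counts in KO-vector cells.

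The rest of the heat shock genes did not follow HSPA6 in size. Of 18 tested genes of the cytosolic heat shock list, 1 was called, HSPA6 (5.56%, beside 0.0836% of all genes). In 16 of the 18 the fold change was above 0 (88.9%, beside 50.2% of all genes). In antimycin this was the case for 13 of the 18, with a median of 0.02. In vehicle the median of the list was 0.05 on the log2 scale, beside 0.00024 for all genes. DNAJB1, an HSP40 co-chaperone, stood at 116 ± 3.55 CPM in F137S cells and 106 ± 3.38 CPM in KO-vector cells (log2 fold change 0.13 ± 0.03, adjusted p = 0.086). The stress-inducible HSP70 genes HSPA1A (0.19 ± 0.10, adjusted p = 0.83) and HSPA1B (0.19 ± 0.08, adjusted p = 0.73) did not pass, and these near-identical copies can share reads. In WT-vector cells DNAJB1 stood at 160 CPM, HSPA1A at 28.0 CPM and HSPA1B at 75.3 CPM. These lie above the F137S means of 116, 21.9 and 57.6 CPM. Other genes of the list lay higher in F137S cells than in WT-vector cells, such as HSPB1 (63.8 beside 52.0 CPM) and DNAJB4 (42.7 beside 36.7 CPM). HSPH1, an HSP110 chaperone, gave 0.07 ± 0.02 (adjusted p = 0.44) and the co-chaperone BAG3 gave 0.06 ± 0.04 (adjusted p = 0.93). HSF1 mRNA was at 75.4 ± 3.35 CPM in F137S cells and 73.8 ± 1.28 CPM in KO-vector cells. Of 24 genes of protein folding in the endoplasmic reticulum, 0 were called by edgeR or DESeq2, 3 were higher and 1 lower at an unadjusted p under 0.05, and the median was 0.01.

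In the ISR list of 21 genes, 5 rose in F137S cells (INHBE, NUPR1, VLDLR, STC2 and CEBPG) and 0 fell, which is 23.8% of the list beside 0.0836% of all genes. At an unadjusted p under 0.05, 15 of the 21 were higher and 0 lower. The median of the list was 0.18 on the log2 scale, with 18 of 21 genes above 0 and ATF5, TRIB3 and EIF4EBP1 below 0. The mean log2 CPM of the list was 3.44, 3.60, 3.52 and 3.51 in F137S cells and 3.12, 3.11, 3.23 and 3.17 in KO-vector cells, so the lowest F137S library lay above the highest KO-vector library. This mean includes GDF15 and FGF21, which had 0 counts in 3 and in 4 of the KO-vector libraries and take their level there from the prior count of 2. Without these 2 genes the mean of the remaining 19 was 4.10, 4.21, 4.14 and 4.22 in F137S cells and 3.86, 3.86, 3.94 and 3.93 in KO-vector cells, and the lines did not overlap either.

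INHBE, which encodes the activin beta E subunit, had the largest rise of the 5 called genes (chromosome 12, from 57455307 to 57458025). It stood at 0.889, 1.22, 0.856 and 0.976 CPM in F137S cells and at 0.508, 0.377, 0.473 and 0.315 CPM in KO-vector cells, a 2.35-fold difference (95% interval 1.81 to 3.05; adjusted p = 2.3e-04). These are few reads, 27 to 39 counts in F137S libraries and 10 to 16 counts in KO-vector libraries. NUPR1, a small chromatin-associated stress protein gene on chromosome 16, stood at 1.68, 2.07, 2.03 and 2.46 CPM in F137S cells and 0.889, 1.35, 0.756 and 1.04 CPM in KO-vector cells. Its difference was 2.04-fold (95% interval 1.56 to 2.65; adjusted p = 0.0059). In both genes the 4 and 4 libraries did not overlap, which was the case for 3.61% of all tested genes. Both genes were called on these same libraries, so this separation adds no support. VLDLR, a lipoprotein receptor gene, averaged 8.44 ± 0.828 CPM in F137S cells and 6.38 ± 0.538 CPM in KO-vector cells (log2 fold change 0.40 ± 0.09, adjusted p = 0.049).

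The other 2 called ISR genes were abundant and moved by small amounts. STC2, a secreted glycoprotein gene, stood at 125, 118, 120 and 129 CPM in F137S cells and at 112, 108, 113 and 112 CPM in KO-vector cells (log2 fold change 0.15 ± 0.03, adjusted p = 0.0035). CEBPG, the gene of a bZIP factor that pairs with ATF4, stood at 97.59, 94.98, 101.4 and 94.33 CPM in F137S cells and at 90.1, 86.9, 87.5 and 91.0 CPM in KO-vector cells (0.13 ± 0.03, adjusted p = 0.028). The libraries of the 2 lines did not overlap in either gene, which the rule that named them required. CEBPG is also the called gene for which one of the start windows of the table holds the composite element bound by ATF4 with a C/EBP partner, searched as TGATGNAA on both strands. The element stands in capitals in the 150 bases before the second of the 2 CEBPG starts in the table (GRCh38.p14, plus strand, chr19:33373963-33374112, from RefSeq). This second start is at 33374113 and the first at 33373709, so the stretch lies downstream of the first start, inside the gene.
CEBPG: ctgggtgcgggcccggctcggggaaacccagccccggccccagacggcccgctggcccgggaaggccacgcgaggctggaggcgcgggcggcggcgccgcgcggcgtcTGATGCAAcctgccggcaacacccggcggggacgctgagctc
Of the same 35116 windows, 3.14% hold this element, and counted by gene, 1061 of 27305 genes with a window hold it. Of the 18 ISR genes with a window, 5 hold it (ATF3, JDP2, CHAC1, CEBPG and FGF21), and of the 9 called genes with a window, 1 does. The heat shock element too is held by 1 of these 9 genes, HSPA6, so whether the 2 elements tend to share windows cannot be judged here.

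ATF4 mRNA stood at 649, 647, 645 and 651 CPM in F137S cells and at 628, 637, 634 and 638 CPM in KO-vector cells. The libraries did not overlap, but the difference was 1.02-fold and did not pass (95% interval 0.997 to 1.05; adjusted p = 0.84). ATF4 is controlled largely through translation, which these mRNA counts do not measure. Other ISR genes that did not pass had values above 0. CHAC1, a glutathione-degrading enzyme gene, gave a log2 fold change of 0.52 ± 0.14 (adjusted p = 0.16). DDIT3, the CHOP gene, gave 0.21 ± 0.07 (adjusted p = 0.45), and ATF3, a bZIP factor gene, gave 0.18 ± 0.05 (adjusted p = 0.10). SESN2, a regulator of mTORC1, gave 0.13 ± 0.03 (adjusted p = 0.14). ATF3 stood at 24.9 ± 1.93 CPM in F137S cells, under its 28.5 ± 0.742 CPM in WT-vector cells. SESN2 stood at 92.6 ± 1.85 CPM in F137S cells, above its 62.5 ± 2.19 CPM in WT-vector cells. TRIB3, a pseudokinase that restrains ATF4, was at 23.4 ± 1.46 CPM in F137S cells and 23.6 ± 1.21 CPM in KO-vector cells (adjusted p = 0.98), and ATF5 gave -0.06. GDF15, a secreted stress hormone, had 4, 10, 8 and 4 counts in F137S cells and 0, 0, 2 and 0 counts in KO-vector cells (adjusted p = 0.057). No fold is given for GDF15 or for the hepatokine gene FGF21, which had 1, 2, 2 and 0 counts in F137S cells and 0 in every KO-vector library.

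**Figure D2:**
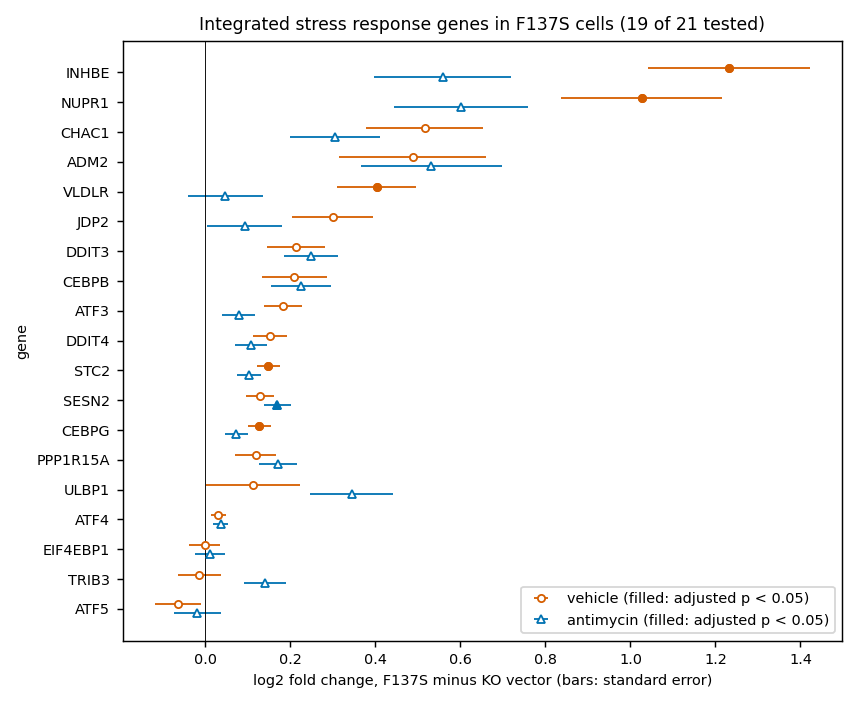
Log2 fold change with its standard error, F137S minus KO vector, for 19 of the 21 tested ISR genes, in vehicle (circles) and in antimycin (triangles). GDF15 and FGF21 are left out because their KO-vector libraries held 0 to 4 counts. Filled symbols have an adjusted p < 0.05. INHBE and NUPR1 lie farthest to the right in vehicle, and ATF4 lies near 0 in both treatments.

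No gene that carries stress from mitochondria to eIF2 passed the test. Of the 18 genes of this list, 0 were called by edgeR or DESeq2 and 0 passed an unadjusted p of 0.05. Of all tested genes, edgeR called 0.0836%, and 6.06% passed the unadjusted threshold. At such shares, 0 of 18 does not set the list apart from other genes. DELE1 stood at 43.1, 47.9, 45.5 and 47.2 CPM in F137S cells and at 45.9, 46.0, 46.4 and 45.9 CPM in KO-vector cells, and its 95% interval was 0.946 to 1.05-fold. EIF2AK1, the HRI gene, was at 240 ± 2.34 CPM in F137S cells and 239 ± 5.71 CPM in KO-vector cells. OMA1 was at 40.9 ± 1.69 CPM in F137S cells and 39.4 ± 2.33 CPM in KO-vector cells (log2 fold change 0.05 ± 0.04, adjusted p = 0.93). These values speak of transcripts only, since cleavage of DELE1 and phosphorylation of eIF2α were not measured.

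The called genes outside these lists fall into amino acid handling and a mixed remainder. CTH, which makes cysteine from cystathionine, stood at 37.9 ± 1.33 CPM in F137S cells and 33.2 ± 2.74 CPM in KO-vector cells (log2 fold change 0.19 ± 0.04, adjusted p = 0.028). SLC38A2, a transporter of neutral amino acids, stood at 276, 278, 300 and 288 CPM in F137S cells and at 268, 253, 253 and 270 CPM in KO-vector cells (0.13 ± 0.02, adjusted p = 0.0045). Of 24 serine and one-carbon genes CTH alone was called, and of 21 amino acid transporter genes SLC38A2 alone, beside 0.0836% of all genes. The medians were 0.00 and 0.02 on the log2 scale. At an unadjusted p under 0.05, 5 of the 24 serine and one-carbon genes were higher and 1 was lower, and 6 of the 21 transporter genes were higher and 0 lower. PSAT1, an enzyme of serine synthesis, missed the threshold (0.08 ± 0.02, adjusted p = 0.057), as did the glycine transporter gene SLC6A9 (0.25 ± 0.06, adjusted p = 0.12) and the cystine transporter gene SLC7A11 (0.13 ± 0.03, adjusted p = 0.10). Other lists of amino acid supply did not rise. Of 20 tested aspartate, asparagine, proline and glutamate enzyme genes, 0 were called and 6 were above 0 (median -0.03). At an unadjusted p under 0.05, 0 of these were higher and 3 lower. Of 20 cytosolic tRNA synthetase genes 0 were called, 2 were higher and 1 lower at that threshold, and the median was -0.001. ASNS, which makes asparagine from aspartate, stood at 1.63 ± 0.247 CPM in F137S cells and 1.79 ± 0.179 CPM in KO-vector cells (adjusted p = 0.96). 

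RERE, a transcriptional corepressor gene, stood at 75.38, 73.19, 75.18 and 75.03 CPM in F137S cells and at 67.0, 62.3, 68.8 and 66.8 CPM in KO-vector cells (log2 fold change 0.17 ± 0.04, adjusted p = 0.011). AMH, the anti-Müllerian hormone gene, stood at 32.7, 32.8, 30.7 and 31.8 CPM in F137S cells and at 26.0, 26.2, 25.9 and 24.7 CPM in KO-vector cells (0.32 ± 0.06, adjusted p = 0.025). The lines did not overlap in either gene, which the rule that named them required. ZNNT1, a long non-coding RNA, averaged 2.17 ± 0.250 CPM in F137S cells and 1.33 ± 0.314 CPM in KO-vector cells (0.71 ± 0.16, adjusted p = 0.034). LOC101927762, a transcript with no annotated function here, had 15, 35, 17 and 36 counts in F137S cells and 11, 6, 5 and 10 counts in KO-vector cells (1.67 ± 0.37, adjusted p = 0.047).

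SLC39A7 encodes a transporter that releases zinc from the endoplasmic reticulum (chromosome 6, from 33200867 to 33204437). It stood at 11.7, 13.3, 15.4 and 12.2 CPM in F137S cells and at 6.73, 4.87, 5.67 and 6.23 CPM in KO-vector cells (log2 fold change 1.16 ± 0.23, adjusted p = 0.037). In the other vehicle lines it stood at 14.1 ± 0.338 CPM in dMTS-DELE1 cells, 11.3 ± 4.67 CPM in the libraries labelled knockout plus SLC25A12-WT, and 12.1 ± 1.80 CPM in WT-vector cells. Of the labelled libraries, 1 had 4.68 CPM, below every KO-vector library, and the other 3 had 11.4 to 15.2 CPM. In antimycin it stood at 11.1 ± 2.48 CPM in F137S cells and 13.2 ± 2.67 CPM in KO-vector cells. F137S cells against WT-vector cells did not pass (0.12 ± 0.22 on the log2 scale, adjusted p = 0.69).

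**Figure D3:**
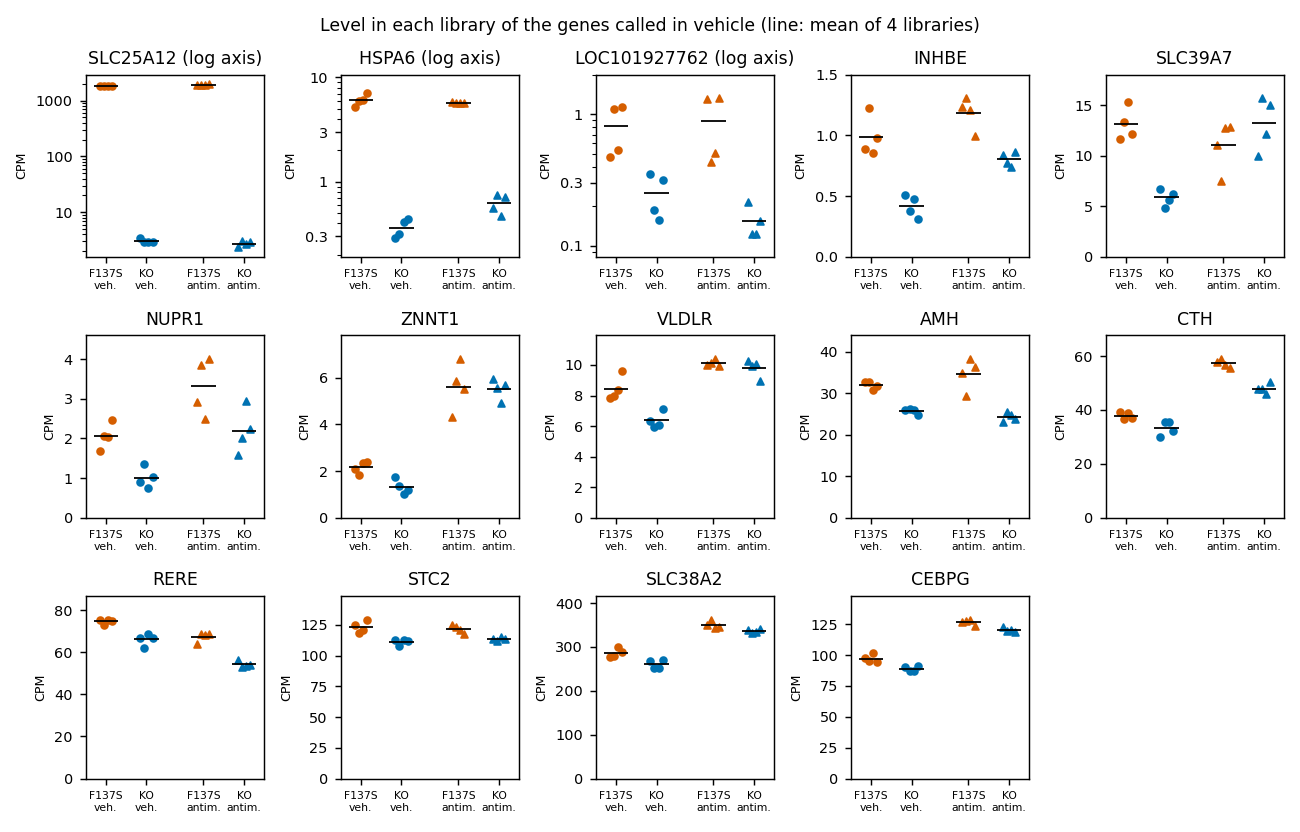
CPM in each library of the 14 genes called in vehicle, for F137S and KO-vector cells in vehicle (circles) and in antimycin (triangles). Orange is F137S, blue is KO vector, and the line is the mean of 4 libraries. The axis is logarithmic for SLC25A12, HSPA6 and LOC101927762 and starts at 0 elsewhere. All 14 separate the lines in vehicle, beside 3.61% of all tested genes. They were called on these vehicle libraries, so this separation adds no support. SLC39A7, ZNNT1, VLDLR and NUPR1 overlap between the lines in antimycin, but the edgeR test of the difference between treatments called 0 genes.

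The plot of levels by library also shows the same 2 lines in antimycin, in libraries that the vehicle comparison does not use. There 19 genes rose in F137S cells against KO-vector cells and 0 fell, which is 0.114% of genes tested. At an unadjusted p under 0.05, 550 genes were higher and 508 lower, and DESeq2 called 34 genes, all higher. Without KO-vector antimycin replicate 1 the count was 12. The libraries of the lines did not overlap in 18 of the 19, beside 3.54% of all genes. The 19 were called on these same libraries, so this separation adds no support. Of the 14 genes called in vehicle, 13 were above 0 in antimycin and 6 were called there: SLC25A12, HSPA6, LOC101927762, CTH, RERE and AMH. HSPA6 stood at 5.80, 5.75, 5.65 and 5.71 CPM in F137S cells and at 0.558, 0.742, 0.464 and 0.712 CPM in KO-vector cells in antimycin (log2 fold change 3.20 ± 0.18, adjusted p = 2.3e-24). AMH gave 0.52 ± 0.06 (adjusted p = 1.9e-06), RERE gave 0.31 ± 0.04 (adjusted p = 2.3e-09) and CTH gave 0.26 ± 0.04 (adjusted p = 1.7e-05). SLC39A7 alone of the 14 was below 0 (-0.26 ± 0.22, adjusted p = 0.92).

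The ISR list had a median of 0.17 in antimycin, with 20 of 21 genes above 0 and 2 called, SESN2 and GDF15. Its mean log2 CPM was 4.01, 4.05, 4.06 and 4.08 in F137S cells and 3.72, 3.64, 3.81 and 3.75 in KO-vector cells, so the lines did not overlap in antimycin either. Without GDF15 and FGF21 it was 4.65, 4.67, 4.69 and 4.74 in F137S cells and 4.45, 4.44, 4.55 and 4.51 in KO-vector cells. SESN2 averaged 164 ± 7.16 CPM in F137S cells and 146 ± 2.31 CPM in KO-vector cells (log2 fold change 0.17 ± 0.03, adjusted p = 0.0023). GDF15 had 13, 11, 29 and 24 counts in F137S cells and 4, 0, 4 and 2 counts in KO-vector cells (adjusted p = 1.2e-04). INHBE (0.56 ± 0.16, adjusted p = 0.39) and NUPR1 (0.60 ± 0.16, adjusted p = 0.17) did not pass in antimycin. The other genes called in antimycin alone were GNG13, INPP5D, IFRD1, PSAT1, UNC5B, AKNA, NIBAN1, SLC7A11, FLJ46906, MBD6 and CCDC183-AS1, and all 13 such genes were above 0 in vehicle. A test of the difference between the treatments called 0 of 16739 genes by edgeR (0%), with 711 genes at an unadjusted p under 0.05 and 0 called by DESeq2. A call in 1 treatment alone is therefore not shown to be a difference between them.

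The levels of the called genes in the other lines place the difference on a wider scale. These lines share the F137S or KO-vector libraries with the comparison above, so their values stand side by side only. dMTS-DELE1 cells also carry F137S, with SLC25A12 at 3716 ± 25.7 CPM, and hold DELE1 at 5344 ± 84.7 CPM. In them INHBE stood at 25.3 ± 1.02 CPM, beside 0.986 ± 0.167 CPM in F137S cells, 0.418 ± 0.0884 CPM in KO-vector cells and 0.556 ± 0.0828 CPM in WT-vector cells. NUPR1 stood at 21.3 ± 0.810 CPM in dMTS-DELE1 cells, 2.06 ± 0.317 CPM in F137S cells, 1.01 ± 0.256 CPM in KO-vector cells and 1.45 ± 0.440 CPM in WT-vector cells. CTH stood at 107 ± 5.26 CPM in dMTS-DELE1 cells, 37.9 CPM in F137S cells, 33.2 CPM in KO-vector cells and 34.7 ± 0.792 CPM in WT-vector cells. For HSPA6 the order of the 2 lines that carry F137S was the reverse. It stood at 4.03, 2.72, 3.24 and 3.07 CPM in dMTS-DELE1 cells, under every F137S library (5.20 to 7.12 CPM) and above every KO-vector library (0.286 to 0.441 CPM), a difference between the F137S lines that was not tested.

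**Figure D4:**
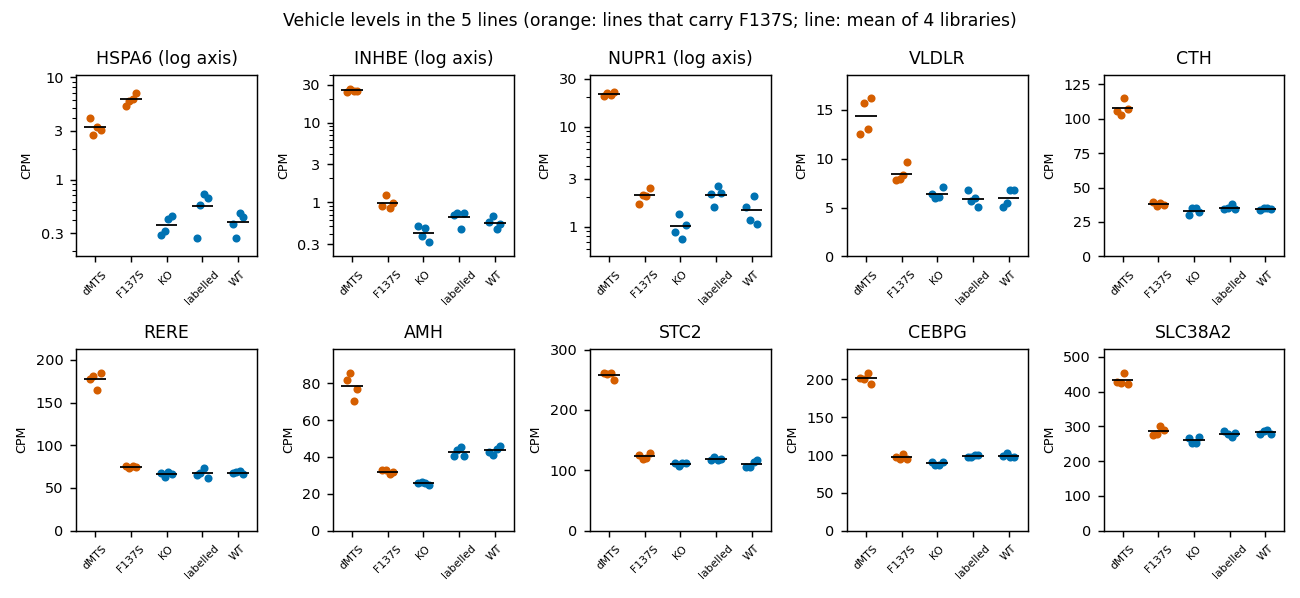
CPM in each vehicle library of the 5 lines for 10 of the called genes. Orange points are the lines that carry F137S (dMTS is dMTS-DELE1), and blue points are KO vector, the libraries labelled knockout plus SLC25A12-WT, and WT vector. The line is the mean of 4 libraries, and the axis is logarithmic for HSPA6, INHBE and NUPR1. HSPA6 is highest in F137S cells, and the other 9 genes are highest in dMTS-DELE1 cells.

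Not every called gene stood apart from wild type. Calls against WT-vector cells were common among all tested genes, with 23.4% called higher in F137S cells and 25.6% called lower in KO-vector cells. HSPA6 (log2 fold change 3.98 ± 0.20, adjusted p = 1.3e-29), INHBE (0.82 ± 0.18, adjusted p = 3.7e-04), VLDLR (0.49 ± 0.09, adjusted p = 7.4e-06), NUPR1 (0.50 ± 0.18, adjusted p = 0.018), STC2 (0.16 ± 0.03, adjusted p = 1.5e-06), RERE (0.14 ± 0.04, adjusted p = 7.9e-04) and CTH (0.13 ± 0.04, adjusted p = 0.0071) were higher in F137S cells than in WT-vector cells. For SLC38A2 (0.01 ± 0.02, adjusted p = 0.72) and CEBPG (-0.03 ± 0.03, adjusted p = 0.42) F137S cells did not differ from WT-vector cells past the threshold, and KO-vector cells were below WT-vector cells (-0.12 ± 0.02 and -0.16 ± 0.03). The same was the case for ZNNT1, where F137S cells gave 0.11 ± 0.15 (adjusted p = 0.57) and KO-vector cells -0.60 ± 0.16 (adjusted p = 0.0011) against WT-vector cells, and for LOC101927762, where F137S cells gave 0.68 ± 0.32 (adjusted p = 0.079) and KO-vector cells -0.99 ± 0.40 (adjusted p = 0.036). NUPR1 was also lower in KO-vector cells than in WT-vector cells (-0.52 ± 0.20, adjusted p = 0.028). AMH was lower in both lines, at 32.0 ± 0.963 CPM in F137S cells, 25.7 ± 0.665 CPM in KO-vector cells and 43.5 ± 2.08 CPM in WT-vector cells.

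Against WT-vector cells, F137S cells had 8226 called genes (49.1%), 23.4% of all tested genes being higher and 25.8% lower. KO-vector cells had 8080 against WT-vector cells (48.3%), 22.7% higher and 25.6% lower. dMTS-DELE1 cells had 7577 against KO-vector cells (45.3%), 19.6% higher and 25.7% lower. Of 17 genes named as markers of lines in earlier results of these data, 13 differed at least 2-fold between KO-vector and WT-vector cells, with log2 fold changes from -4.75 to 6.76. The markers were picked in these same data, so their difference from wild type adds no support. Between F137S and KO-vector cells these 13 ran from -0.08 to 0.09, and 0 were called by edgeR or DESeq2 or passed an unadjusted p of 0.05. Of all tested genes, edgeR called 0.0836% in this comparison and 6.06% passed the unadjusted threshold. The other 4, SOX6, ZBTB20, BNC2 and PLCL1, were within 2-fold between KO-vector and WT-vector cells. Of these 4, SOX6 and ZBTB20 were higher in F137S than in KO-vector cells at an unadjusted p under 0.05, and 0 were called. DBIL5P, for example, stood at 178 CPM in F137S cells, 181 CPM in KO-vector cells and 1.66 CPM in WT-vector cells. Medians per chromosome ran from -0.01 to 0.02 between F137S and KO-vector cells, over 16449 placed genes.

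In the 11 lists of mitochondrial proteins pooled, 1 of 331 tested genes was called, SLC25A12 (0.302%, beside 0.0836% of all genes). At an unadjusted p under 0.05, 22 of the 331 were lower (6.65%, beside 2.85% of all genes) and 5 were higher (1.51%, beside 3.21% of all genes). The fold change was above 0 in 91 of the 331 (27.5%, beside 50.2% of all genes), and the median was -0.02. In antimycin 86 of the 331 were above 0 (26.0%, beside 48.2% of all genes). This lean was not particular to the mitochondrial lists. In vehicle the fold change was above 0 in 17 of 80 cytosolic ribosomal protein genes (21.25%) and in 7 of 35 proteasome genes (20%). Other lists leaned the other way, such as mitosis, with 18 of 25 genes above 0 (72%). The median was -0.03 for the 37 tested subunits of complex I, -0.03 for the 39 of complexes II to V and -0.03 for the 77 mitochondrial ribosomal proteins, each with 0 called. SLC25A13, the paralogous aspartate and glutamate carrier, was at 115 ± 0.938 CPM in F137S cells and 116 ± 2.15 CPM in KO-vector cells (95% interval 0.953 to 1.03-fold). The malate-aspartate enzymes GOT1, GOT2, MDH1 and MDH2 had log2 fold changes of 0.00, 0.00, -0.01 and -0.03. SLC25A22, a glutamate carrier, gave -0.14 ± 0.04 (adjusted p = 0.29).

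**Figure D5:**
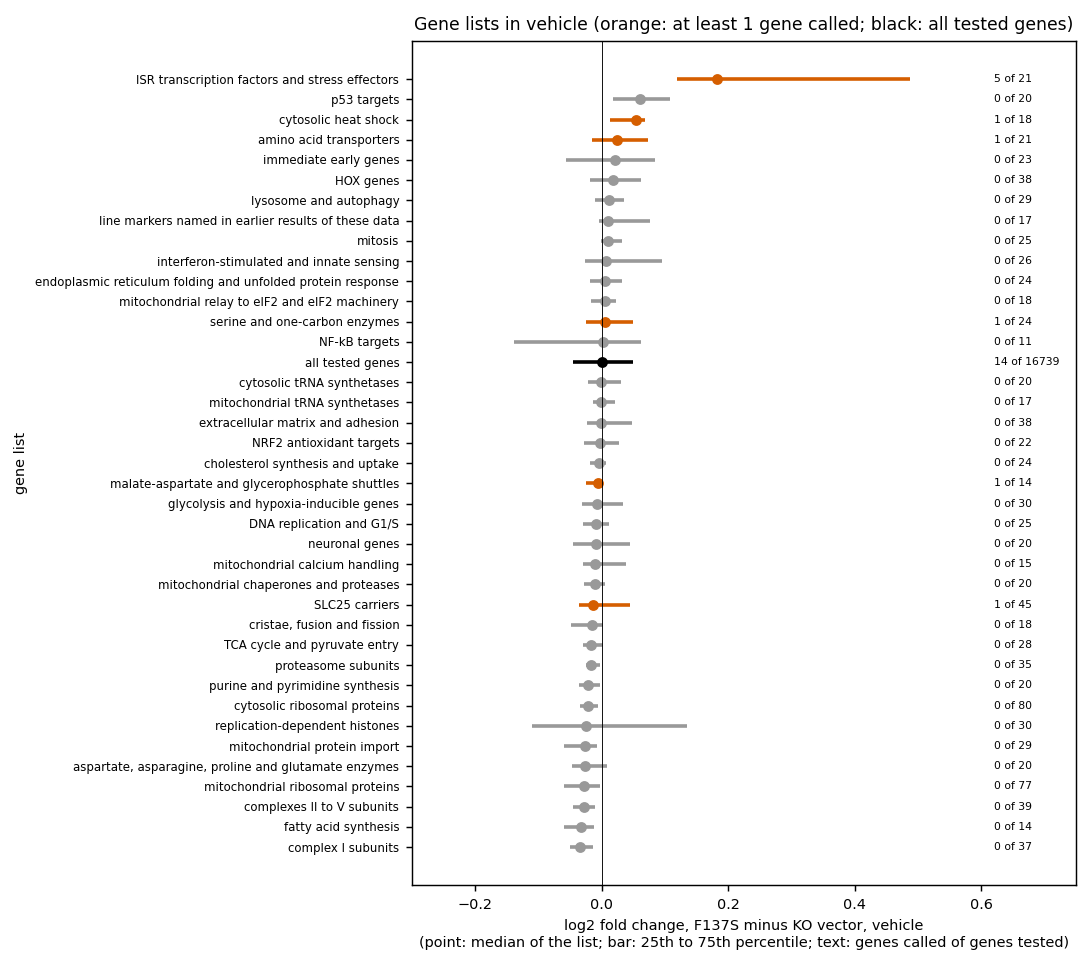
Median (point) and 25th to 75th percentile (bar) of the log2 fold change in vehicle, F137S minus KO vector, for 38 gene lists and all tested genes, with the number called of the number tested. Orange lists hold at least 1 called gene. The ISR list has the highest median, 0.18, and the other lists lie between -0.03 and 0.06.

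The plot of list medians sets these lists beside each other. In 32 of the 38 lists edgeR called 0 genes, and their medians ran from -0.03 to 0.06. They hold 876 tested genes, of which 30 were higher and 37 lower at an unadjusted p under 0.05, and DESeq2 called 1 higher and 1 lower. The p53 targets had the second highest median, 0.06, with 0 of 20 called by edgeR. At an unadjusted p under 0.05, 7 of the 20 were higher, beside 3.21% of all genes, and 0 were lower. The fold change was above 0 in 16 of the 20 in vehicle and in 18 in antimycin. Among them TNFRSF10B, a death receptor gene that CHOP also induces, stood at 88.9 ± 1.62 CPM in F137S cells and 81.5 ± 2.61 CPM in KO-vector cells (log2 fold change 0.13 ± 0.03, adjusted p = 0.057). CDKN1A, the p21 gene, gave 0.28 ± 0.07 (adjusted p = 0.10) and MDM2 gave 0.08 ± 0.02 (adjusted p = 0.17). The 3 genes that DESeq2 called lower were LRP8, a lipoprotein receptor gene (-0.14 ± 0.04, adjusted p = 0.10 by edgeR), RRM2, a ribonucleotide reductase subunit gene (-0.08 ± 0.02, adjusted p = 0.10 by edgeR), and HNRNPAB, an RNA-binding protein gene (-0.07 ± 0.02, adjusted p = 0.10 by edgeR).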

How the data were processed

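Poly(A) RNA was sequenced as 150-base read pairs on a T7 instrument, per the labels' protocols. The authors deposited raw counts for 28278 gene symbols in 40 libraries. HISAT2 2.1.0 and featureCounts 2.0.6 on hg38 were used, per the submitters' processing notes. Settings, annotation and strand use were not given in the sources used here, so overlapping genes cannot be separated.

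Counts were filtered (filterByExpr), scaled by TMM and fitted with edgeR 4.0.16 (robust quasi-likelihood, 1 coefficient per group, all 40 libraries; R 4.3.3). Calls are at a Benjamini-Hochberg adjusted p < 0.05 over 16739 genes. SE is the log2 fold change over the root of F. CPM uses TMM-scaled totals of tested genes, and log2 CPM a prior count of 2. DESeq2 1.42.0 was the alternative. All 60 pairs of replicate libraries were checked, and 0 were identical. The procedure was tested on simulated data.

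Members, lists and tests were chosen with earlier results of these data known. Named by rule were the targeted gene and relay genes, and called genes with a mean of at least 1 on the log2 CPM scale, a plain symbol and no overlap (9 higher, 0 lower). HSPA6, INHBE, NUPR1, ZNNT1, LOC101927762, the genes called in antimycin alone and those that missed the threshold were named after their values were seen. Gene positions and start regions come from RefSeq (GRCh38.p14). Genes encoded in mitochondrial DNA were not analysed here.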

Additional observations from a re-analysis of the deposited data

Results flagged for a closer look

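Among the groups of 4 libraries of the named genes, 76 were examined for 1 library far from the other 3, and 5 stood out, where chance gives about 1 in 20. RERE stood at 73.2 CPM in F137S vehicle replicate 2, against 75.03 to 75.38 CPM in the other 3, and at 64.1 CPM in F137S antimycin replicate 1, against 68.3 to 68.8 CPM. SLC25A12 stood at 3.43 CPM in KO-vector vehicle replicate 1, against 2.96 to 2.99 CPM in the other 3. STC2 stood at 108 CPM in KO-vector vehicle replicate 2, against 112 to 113 CPM. DELE1 stood at 46.4 CPM in KO-vector vehicle replicate 3, against 45.9 to 46.0 CPM. Each gap is small beside the level of the gene.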

How the results depend on the processing

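The vehicle count of 14 was 24 with the DESeq2 Wald test, 6 with counts halved and 5 to 11 with 1 library left out, of which 5 to 10 were among the 14. In a fit of the 8 libraries of this comparison alone it was 11, of which 8 were among the 14. In that fit the count at 2-fold or more was 4. The count at 2-fold or more, 6, was 3 with counts halved and 3 to 5 with 1 library left out, 3 of them without F137S replicate 4 or without KO-vector replicate 1. The antimycin count of 19 was 34 with DESeq2 and 12 to 28 with 1 library left out. The difference between treatments, 0 genes, was 1 gene in a fit of the 4 groups alone (FAM83H, log2 fold change -1.03, adjusted p = 0.011) and 1 without the libraries labelled knockout plus SLC25A12-WT (SLC39A7, -1.42, adjusted p = 0.041), and 0 in each fit that left out 1 library. Against WT-vector cells, F137S cells had 7710 to 7863 calls and KO-vector cells 7568 to 7609 with 1 library left out, and dMTS-DELE1 cells had 6868 to 7284 against KO-vector cells. The cause of these shifts was not tested, except that halved counts and left-out libraries hold less data. Counts halved and the fit without the labelled libraries were chosen after seeing the data. Over 15 alternatives SLC25A12 and HSPA6 were called each time, 0 of the 14 genes changed sign, and the ISR list had 2 to 6 calls with a median of 0.15 to 0.20. Deviations of same-numbered libraries of the 2 lines correlated at -0.122 to 0.0836 in vehicle, and 1 of 4 libraries matched its own number best, so the numbers do not pair the libraries. With the replicate number as a block the vehicle count was 14, with 12 genes shared. Depth limits the fold changes of genes with few counts, such as GDF15.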
